A study of Mus musculus with 53 samples.

Results

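The genes described here are 10 members of the bone morphogenetic protein (BMP) pathway, namely the ligands *Bmp2*, *Bmp4*, *Bmp5*, *Bmp6*, *Bmp7* and *Gdf5*, the secreted antagonists *Nog* and *Grem1*, and the target genes *Id1* and *Id3*. They were chosen by symbol, and every probe set that the platform annotation gives to one of these symbols was kept, 14 probe sets of the 45037 on the array that are not controls. The 10 genes stand among 17097 genes that at least 1 probe set names alone. *Bmp5* and *Bmp7* have 3 probe sets each and the other genes 1 each, and a gene took its values from the probe set that is brightest over all arrays unless another is named. In the mouse genome build GRCm38.p6, 5 of the genes lie on chromosome 2 (*Grem1*, *Bmp2*, *Id1*, *Gdf5* and *Bmp7*), and the others on chromosomes 4 (*Id3*), 9 (*Bmp5*), 11 (*Nog*), 13 (*Bmp6*) and 14 (*Bmp4*).

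BMPs are secreted proteins of the TGF-β superfamily that bind pairs of type I and type II receptor kinases, which phosphorylate SMAD1, SMAD5 and SMAD9. These SMADs enter the nucleus with SMAD4 and turn on target genes, of which the ID genes are among the most direct. ID proteins lack a DNA-binding domain and hold basic helix-loop-helix factors away from DNA. Noggin and gremlin 1 bind BMPs outside the cell and keep them from their receptors. In the limb, BMPs take part in patterning, cartilage and bone formation and joint development.

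The arrays measured total RNA of a mouse model of synovial sarcoma, a soft tissue tumor with a fusion of *SS18* to an *SSX* gene. Embryonic mesenchymal cells (eMCs), taken from the limbs of late-gestation BALB/c embryos, carried the retrovirus pMYs-IRES-GFP (eMC_empty, n = 4) or the retrovirus with FLAG-tagged human *SS18-SSX1* (eMC_SS18-SSX1, n = 4) for 48 h. SS tumors (n = 12) had grown under the skin of nude mice, which lack T cells, from eMCs with *SS18-SSX1*, and SS214 tumors (n = 13) from eMCs whose vector carried *SS18-SSX1* and *miR-214*. The lines SS40 and SS64, each from a mouse synovial sarcoma, were transfected with *miR-214* or with a negative control RNA (NC), with 4 arrays in each of these 4 groups. The reference, called mix, is 4 arrays of a pool of normal organs that held heart, brain, liver, lung, kidney, intestine, muscle, ovary, skin and bone marrow. By the study's account, SS tumors 18, 19 and 23 carried retroviral integrations at *Dnm3*, the locus of *miR-214*, with raised *miR-214*, moderately in tumor 23. The SS group is thus not free of such tumors. The study also reports raised *miR-214* in several mouse tumors without integrations. Leaving out tumors 18, 19 and 23 therefore need not free the group of raised *miR-214*. Retroviral expression is not restricted to a cell type, the tumors hold host cells beside sarcoma cells, and each line stands for a single tumor.

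Before the results, some arrays need naming. The 3′/5′ *Gapdh* ratio, between probe sets at either end of the transcript, which rises as RNA is degraded or copied less far, had a log2 value of 0.85 ± 0.37 in SS tumors (SD, n = 12) and 0.06 ± 0.14 in SS214 tumors (SD, n = 13), and the means of the other groups lay between -0.18 and 0.06. SS tumors 24 and 29 differed by 0.147 (SD of the log2 difference over 27913 probe sets), which lies within the 0.129 to 0.184 between arrays of the mix, whereas the next closest SS tumors differed by 0.348. The closest arrays of each line group differed by 0.144 to 0.163. All arrays of eMC_empty and eMC_SS18-SSX1 differed by 0.124 to 0.183, as little as repeat arrays of the mix, so p-values between them measure a spread that may be technical. SS214 tumors 13 to 16 stood apart by lung genes, which lay over 1 log2 unit above every SS tumor in these 4. *Sox2*, which the fusion protein activates, read 9.74 ± 0.50 in SS tumors and 10.74 ± 0.01 in SS64 with NC but 3.57 ± 0.05 in SS40 with NC (SD, n = 12, 4 and 4), so the line labelled SS40 lacked this marker of the tumor. Arrays 3 and 4 of the *miR-214* groups differed from arrays 1 and 2 in genes that separate the lines. *Sox2* read 3.86, 3.74, 4.99 and 5.04 in SS40 with *miR-214*, and *Fst*, high in SS40, read 3.55, 3.55, 4.57 and 5.55 in SS64 with *miR-214*, so the results in the lines are also given without these 4 arrays.

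Sequences are shown for the RNA that was introduced and for those members with a promoter in the RefSeq tables (build GRCm38.p6) whose levels differed most between the lines or between tumors and mix. The labels name *miR-214* without an arm, so both mature arms are given, with the seed (bases 2 to 8) in capitals. They lie on the plus strand at chr1:162223438-162223459 and chr1:162223397-162223418.
mmu-miR-214-3p: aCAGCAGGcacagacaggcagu
mmu-miR-214-5p: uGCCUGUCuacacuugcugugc

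The windows that follow are the 250 bases before the annotated start of *Id3* (chr4:136143572-136143821, plus strand), *Bmp4* (chr14:46390670-46390919, minus strand) and *Grem1* (chr2:113758649-113758898, minus strand), each read along the gene. Capitals mark GTCT or its reverse complement AGAC, the short SMAD-binding element, and GGCGCC, a GC-rich element that reads the same on both strands.
Id3: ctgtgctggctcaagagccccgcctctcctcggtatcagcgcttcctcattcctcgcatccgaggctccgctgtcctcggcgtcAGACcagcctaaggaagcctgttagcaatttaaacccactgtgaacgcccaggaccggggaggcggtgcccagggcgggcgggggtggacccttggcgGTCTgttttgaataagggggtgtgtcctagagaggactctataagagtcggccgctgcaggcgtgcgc
Bmp4: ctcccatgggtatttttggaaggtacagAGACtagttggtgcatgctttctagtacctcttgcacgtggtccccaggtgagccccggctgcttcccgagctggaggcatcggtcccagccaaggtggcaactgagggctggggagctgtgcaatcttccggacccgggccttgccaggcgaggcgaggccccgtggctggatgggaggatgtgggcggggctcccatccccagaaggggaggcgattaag
Grem1: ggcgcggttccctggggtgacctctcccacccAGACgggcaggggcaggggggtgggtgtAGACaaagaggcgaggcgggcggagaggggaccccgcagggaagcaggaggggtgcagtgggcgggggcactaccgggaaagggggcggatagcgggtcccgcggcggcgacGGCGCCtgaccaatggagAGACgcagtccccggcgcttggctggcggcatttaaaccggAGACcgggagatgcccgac

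The *Grem1* window held 4 matches to GTCT and 1 to GGCGCC, the *Id3* window 2 to GTCT and the *Bmp4* window 1. Of 32851 promoter windows of the same length, 82.9% held at least 1 match to GTCT and 9.59% at least 1 to GGCGCC, and 12.5% held as many GTCT matches as *Grem1*. CG dinucleotides numbered 24 in the *Grem1* window, 18 in that of *Id3* and 11 in that of *Bmp4*, where the median window held 6.

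The members differed widely in where they were bright. All levels below are log2 intensities, and a level says nothing about the order of 2 different genes, since probe sets differ in brightness. A value of 4.15 corresponds to the 40th percentile of the probe sets on an array, and values under it were read as near background. *Id3* and *Id1* were bright on every array, with *Id3* between 9.30 and 12.12 and *Id1* between 8.65 and 10.72. *Nog* lay under the 40th percentile on all arrays but 1, replicate 4 of SS40 with NC at 4.31, and gave no usable level here.

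The order of the 9 group means separated the ligands. *Bmp2* and *Bmp5* were highest in eMC_empty (9.53 ± 0.04 and 8.24 ± 0.04, SD, n = 4), next in eMC_SS18-SSX1 and then in SS tumors, which for *Bmp2* overlapped SS40 with NC. *Bmp6* was highest in eMC_empty as well, at 7.35 ± 0.08, and the mix came next at 6.36 ± 0.21, without overlap. *Bmp7* was highest in SS tumors at 8.90 ± 0.16 (SD, n = 12), then in SS214 tumors, eMC_empty and eMC_SS18-SSX1, each without overlap with the next, while the lines and the mix followed between 5.55 and 5.77 with overlapping ranges. *Bmp4* was highest in SS40 with NC, SS tumors and SS40 with *miR-214*, which overlapped in that order, and lowest in SS64. *Grem1* led in the lines, with both SS40 groups at the top, SS64 with NC next and the mix last at 4.76 ± 0.09 (SD, n = 4). *Gdf5* reached 5.06 ± 0.18 in eMC_empty and lay under the 40th percentile on every array of the mix and the lines. *Id1* was highest in the eMCs and *Id3* lowest in the mix, and between these the neighbouring groups of either ID gene mostly overlapped.

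**Figure D1:**
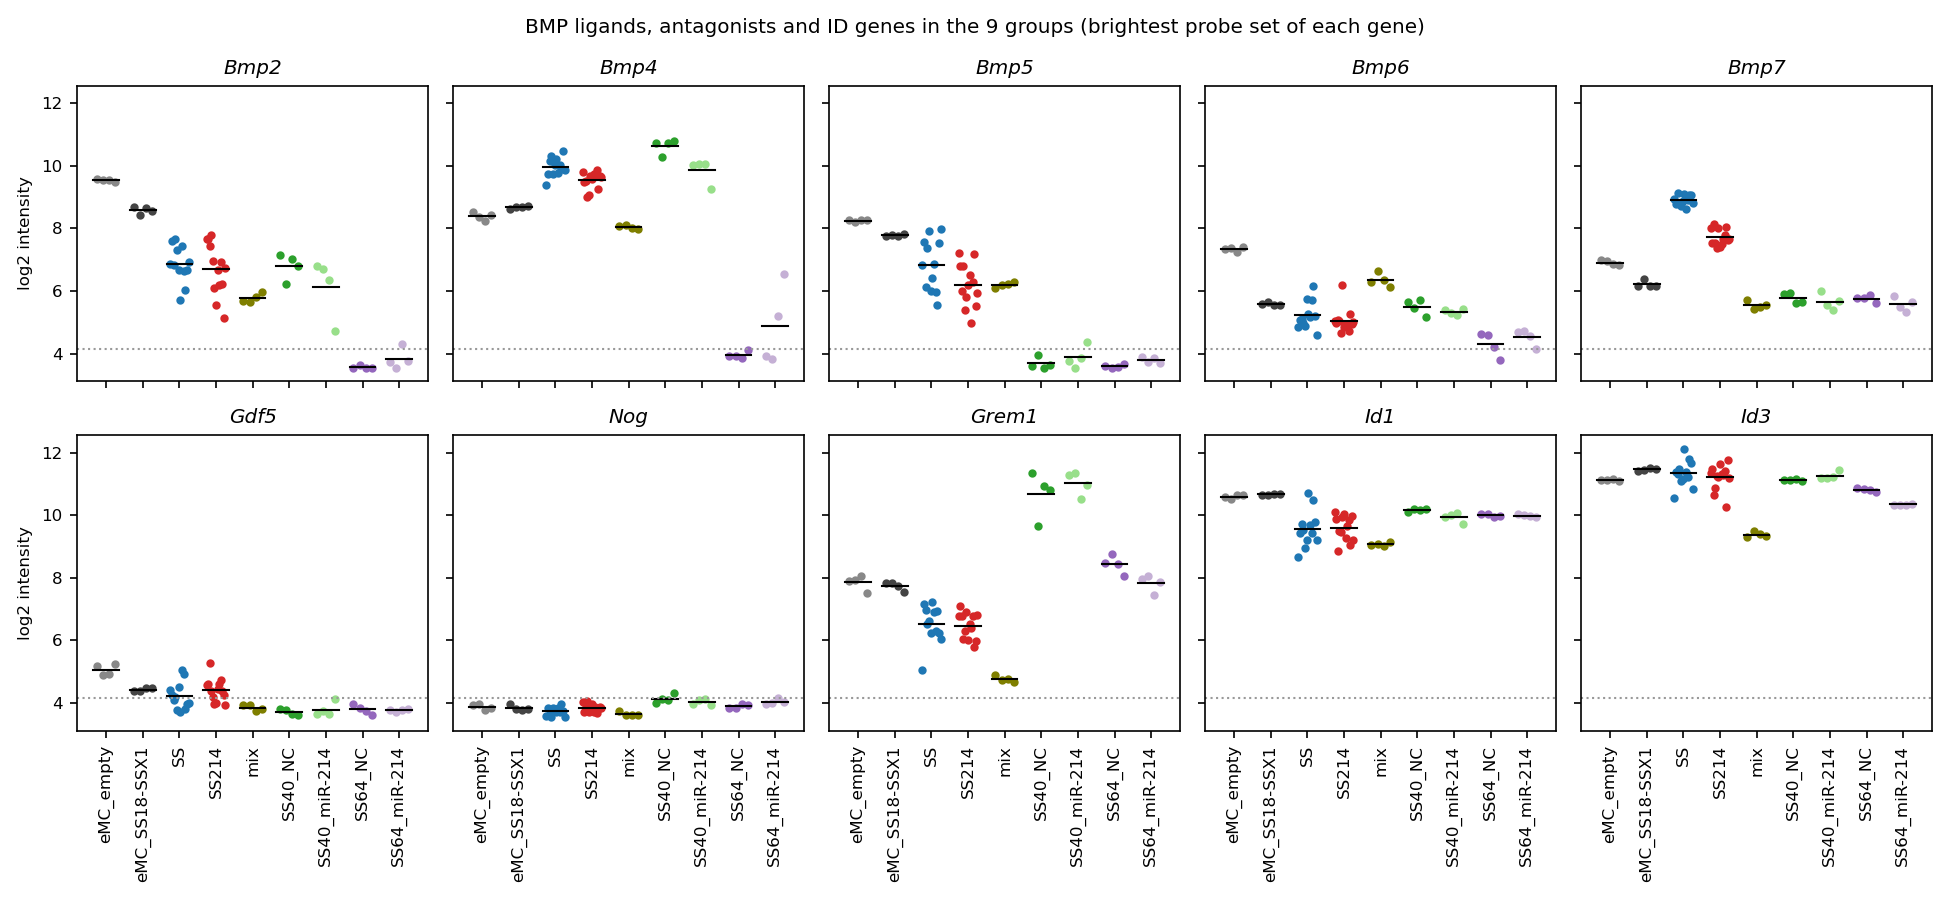
Log2 intensity of the brightest probe set of each of the 10 genes (panels) on every array (points) of the 9 groups (horizontal axis), with black bars at the group means and a dotted line at the 40th percentile, 4.15. *Bmp7* peaks in SS tumors, *Grem1* in the lines, *Bmp4* is at the dotted line in SS64 with NC, and *Nog* stays near that line in all groups.

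In eMCs, 5 of the 6 ligands were lower after 48 h of *SS18-SSX1*, and *Bmp4* and both ID genes were slightly higher. *Bmp6*, a ligand active in bone and iron metabolism, read 7.35, 7.39, 7.24 and 7.41 with the empty vector and 5.57, 5.64, 5.54 and 5.55 with *SS18-SSX1*, a fall in every array. The log2 difference was -1.77 (SE 0.06, adjusted p = 3.29e-12 by limma), a 3.41-fold lower level. A gene was taken as called where the adjusted p was under 0.05 and the level moved over 2-fold, and *Bmp6* was the 1 member of 10 called, where 3.65% of the 15324 genes tested were called.

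The other ligands moved by less than 2-fold in their brightest probe sets. *Bmp2*, which drives bone formation and chondrocyte maturation, went from between 9.48 and 9.58 to between 8.44 and 8.67, a log2 difference of -0.95 (SE 0.05, adjusted p = 1.49e-10). *Bmp7* fell in all 3 probe sets, by 0.68 in the brightest (1435479_PM_at), 1.64 in 1418910_PM_at and 1.06 in 1432410_PM_a_at. *Bmp5* fell by 0.46, 0.64 and 0.52 in its 3 probe sets. *Gdf5*, a marker of the developing joint, fell by 0.63. *Bmp4*, a ligand of early mesenchyme, rose by 0.29 (SE 0.05, adjusted p = 0.000348). With all probe sets counted, *Bmp7* would also be called, and 2 genes in place of 1.

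The ID genes rose slightly. *Id3* read 11.12, 11.13, 11.15 and 11.10 with the empty vector and 11.41, 11.45, 11.52 and 11.46 with *SS18-SSX1*, a log2 difference of 0.33 (SE 0.02, adjusted p = 7.94e-09). *Id1* differed by 0.08 (SE 0.03, adjusted p = 0.0194), which did not hold without replicate 2 of eMC_empty (adjusted p = 0.0627). In all, 3 members rose and 5 fell at an adjusted p under 0.05, where 48.9% of all genes did so, 29.4% higher and 19.5% lower, while *Nog* (-0.05, adjusted p = 0.603) and *Grem1* (-0.12, adjusted p = 0.352) did not pass. The arrays of the groups did not overlap for 8 of the 10 members, and for 46.5% of all genes tested. The small changes rest on the narrow spread of these arrays. With the spread estimated over all 53 arrays, the adjusted p became 0.139 for *Bmp2*, 0.62 for *Bmp4*, 0.532 for *Bmp5*, 0.9 for *Id1* and 0.351 for *Id3*.

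Among other pathway genes, the called ones were *Nbl1*, a secreted BMP antagonist (1.31, adjusted p = 5.94e-11), and *Hey1*, a transcriptional repressor that BMP and Notch signals induce (1.22, adjusted p = 1.54e-08). Of 14 other antagonists tested, 5 rose and 2 fell, with a median of -0.04, and of 11 receptors and co-receptors, 3 rose and 4 fell, with a median of -0.08, where the median of all genes was 0.00 (-8.395e-05). Of 6 other target genes, 2 rose and 3 fell.

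Markers of other cells moved with the groups. All 10 cartilage genes fell (median -1.16) and their mean level went from between 11.04 and 11.09 to between 9.77 and 9.83. All 12 endothelial genes rose (median 1.74; mean level 4.74 to 6.60), as did all 7 mast cell genes (2.92; 4.13 to 7.04), all 7 smooth muscle genes (1.64) and 7 of 8 granulocyte genes (1.54). At the start, 5 of the 12 endothelial and 6 of the 7 mast cell genes lay under the 40th percentile in eMC_empty. The part of these genes in the differences of the BMP members was not tested, and in such bulk samples fewer cells of a type cannot be told apart from less RNA per cell.

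Ligand levels in SS tumors differed from those in cells with the empty vector. The tumors grew from eMCs with *SS18-SSX1*, against which they were not tested. Against eMC_empty, *Bmp7* and *Bmp4* were higher and *Bmp2*, *Bmp6*, *Bmp5*, *Grem1* and *Id1* lower. These are 7 called members of 10, where 23.2% of 15623 genes were called, 14.5% higher and 8.7% lower. *Id1*, just over 2-fold, was not called with quantile normalization (-0.95) or with the closest arrays averaged (-0.9975), which left 6.

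*Bmp7*, a ligand of kidney and skeletal development, lay between 6.82 and 6.99 in eMC_empty and between 8.61 and 9.12 in SS tumors, with a median of 8.90. The log2 difference was 2.00 (SE 0.09, adjusted p = 3.14e-12), or 3.99-fold. It was 1.27 in 1418910_PM_at (adjusted p = 6.08e-08) and 0.11 in 1432410_PM_a_at (adjusted p = 0.755), so the probe sets of *Bmp7* differed. *Bmp4* went from 8.53, 8.36, 8.23 and 8.44 to between 9.39 and 10.46, median 9.96, a difference of 1.58 (SE 0.15, adjusted p = 3.9e-08). Neither gene's groups overlapped.

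Of the ligands that were lower, *Bmp2* changed most. It read between 5.70 and 7.65 in SS tumors, median 6.86, against at least 9.48 in eMC_empty, a difference of -2.67 (SE 0.28, adjusted p = 1.85e-07), or 6.36-fold. *Bmp6* lay between 4.59 and 6.16, median 5.13, against at least 7.24, a difference of -2.12 (SE 0.22, adjusted p = 1.43e-07). *Bmp5* varied more among tumors than any other member, from 5.54 to 7.99, and was lower (-1.40, SE 0.38, adjusted p = 0.00417), with -1.75 in 1421283_PM_at. The remaining probe set, 1421282_PM_at, was lower too (fitted difference -2.47), but 10 of the 12 tumors lay under the 40th percentile there, so the size of its fall was not measured.

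The antagonist *Grem1* was lower in SS tumors, between 5.07 and 7.24 against 7.91, 7.94, 8.07 and 7.51, a log2 difference of -1.34 (SE 0.29, adjusted p = 0.000656) without overlap. *Id1* was lower (-1.02, SE 0.27, adjusted p = 0.00321), but its tumors ranged from 8.65 to 10.72 and overlapped the eMCs at 10.51 to 10.64. *Id3* did not follow it, with a difference of 0.21 (95% interval -0.20 to 0.62, adjusted p = 0.361). *Gdf5* was lower (-0.83, adjusted p = 0.00206), with 6 of the 12 tumors under the 40th percentile, and *Nog* near background did not pass (-0.15, adjusted p = 0.0703).

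The rest of the pathway held called genes on both sides. Of 6 other target genes, 5 were higher and none lower, with a median of 2.22 where the median of all genes was -0.03. The called ones were *Msx1* (4.57), *Msx2* (2.63), *Hey1* (2.56) and *Id4* (1.89), of which the *Msx* genes encode homeobox factors of limb mesenchyme. Of 13 other antagonists, 8 were higher and 2 lower (median 0.85), led by *Chrdl1* (3.79), a chordin-like BMP binder, and *Nbl1* (2.56), while *Bambi*, a pseudoreceptor, was lower (-2.36). Of 11 receptors and co-receptors, 6 were higher and 2 lower (median 0.78), with *Hjv* at 2.93, *Bmpr1b* at 1.47, *Rgmb* at 1.24 and *Acvr1* at -1.18.

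Skeletal muscle genes stood at a mean level of 9.88 to 12.18 in SS tumors and of 5.21 to 5.28 in eMC_empty, with all 10 higher, and all 10 cartilage genes were lower (median -5.98). Endothelial genes were higher for 11 of 12 (median 1.15). Their part in these results was not tested, nor was that of the *Gapdh* ratio, whose range in SS tumors (0.33 to 1.43) did not overlap that in eMC_empty (-0.02 to 0.06).

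Against normal organs, SS tumors were higher in *Bmp7*, *Id3*, *Bmp4*, *Grem1* and *Bmp2* and lower in *Bmp6*. These 6 called members compare with 25.1% of 15677 genes, 11.3% higher and 13.8% lower. *Bmp7* read 5.70, 5.43, 5.50 and 5.56 in the mix, and the difference was 3.35 (SE 0.10, adjusted p = 9.52e-16), or 10.2-fold. The other 2 probe sets of *Bmp7* were higher by 4.02 and 1.49, so all 3 passed.

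*Id3* read 9.30, 9.49, 9.39 and 9.35 in the mix and between 10.54 and 12.12 in SS tumors, median 11.35. Its difference was 1.95 (SE 0.20, adjusted p = 1.4e-07). *Id1* differed by 0.50 (95% interval -0.08 to 1.07, adjusted p = 0.133), with overlap. *Bmp4* was higher by 1.92 (SE 0.14, adjusted p = 2.27e-09) and *Grem1* by 1.76 (SE 0.29, adjusted p = 4.65e-05), both without overlap.

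*Bmp2* was higher by 1.09 (SE 0.28, adjusted p = 0.00309) and *Bmp6* lower (-1.14, SE 0.22, adjusted p = 0.000254), and in both the tumors overlapped the mix. *Bmp5* (0.65, adjusted p = 0.167), *Gdf5* (0.38, adjusted p = 0.125) and *Nog* (0.10, adjusted p = 0.238) did not pass. The comparisons with eMC_empty and with the mix share the 12 SS tumors. Since the mix is an average over organs, a gene confined to 1 organ is diluted in it.

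Other antagonists were mostly higher than in the mix, 10 of 14, with 2 lower and a median of 0.99 where that of all genes was 0.07. *Chrdl1* (3.80), *Fst* (3.73), *Bmper* (3.24) and *Fstl1* (2.93) were the largest, all genes of secreted proteins that bind BMPs or activins or are related to them. Of 6 other target genes, 4 were higher, among them *Msx1* (3.68), *Msx2* (1.85) and *Id4* (1.56). The largest called receptor genes were *Acvrl1* (-2.30), *Rgmb* (2.14), *Bmpr1b* (1.98) and *Eng* (-1.09), of which *Acvrl1*, under the 40th percentile in 9 of the 12 tumors, and *Eng* are endothelial. Markers of other cells moved here too. All 12 endothelial genes (median -1.97), 8 of 8 granulocyte genes (-6.21), 5 of 5 lung genes (-7.87) and 6 of 7 smooth muscle genes (-3.88) were lower in SS tumors than in the mix, 5 of 7 mast cell genes were higher (1.76), and their part in the differences of the members was not tested.

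**Figure D2:**
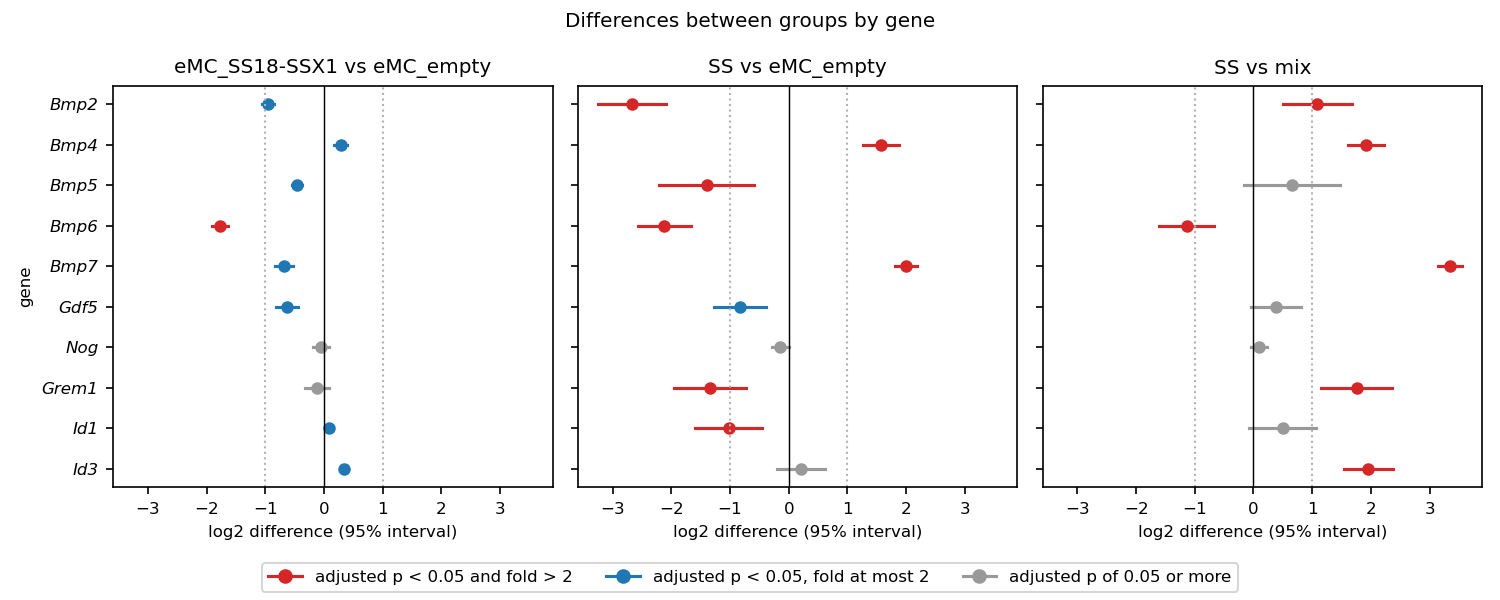
Log2 differences (points) with 95% intervals (lines) of the 10 genes between eMC_SS18-SSX1 and eMC_empty, SS tumors and eMC_empty, and SS tumors and mix, colored by whether the adjusted p was under 0.05 and the fold over 2, with dotted lines at 2-fold. *Bmp6* is lower in all 3 panels, and *Bmp7* is lower in the first (-0.68) and higher in the others (2.00 and 3.35).

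Tumors with *miR-214* differed from SS tumors in *Bmp7* more than in any other member. It lay between 7.36 and 8.13 in SS214 tumors, median 7.65, and between 8.61 and 9.12 in SS tumors, without overlap. The log2 difference was -1.19 (SE 0.09, adjusted p = 8.84e-09), or 2.28-fold. It was the 1 called member of 10, where 2.01% of 15643 genes were called and 1.27% did not overlap between the groups.

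The probe sets of *Bmp7* did not move together. 1418910_PM_at was lower (-0.47, SE 0.11, adjusted p = 0.00143), with overlapping ranges, and 1432410_PM_a_at was higher by 0.66 (SE 0.20, adjusted p = 0.0114). With the *Gapdh* ratio as a covariate, the difference of 1435479_PM_at was -1.20 (SE 0.17, adjusted p = 0.00135), that of 1418910_PM_at -0.41 (adjusted p = 0.207) and that of 1432410_PM_a_at -0.57 (adjusted p = 0.122), so the last turned its direction. This covariate was added after the ratio was seen, and the groups overlap in it only between 0.33 and 0.48. Without SS214 tumors 13 to 16 the brightest probe set gave -1.15 (adjusted p = 3.92e-07). SS tumors 18, 19 and 23, with integrations at *Dnm3*, read 8.94, 8.78 and 8.73, within the range of the other SS tumors. Without them it gave -1.21 (adjusted p = 2.45e-07), and 1432410_PM_a_at no longer passed (0.44, adjusted p = 0.0865).

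**Figure D3:**
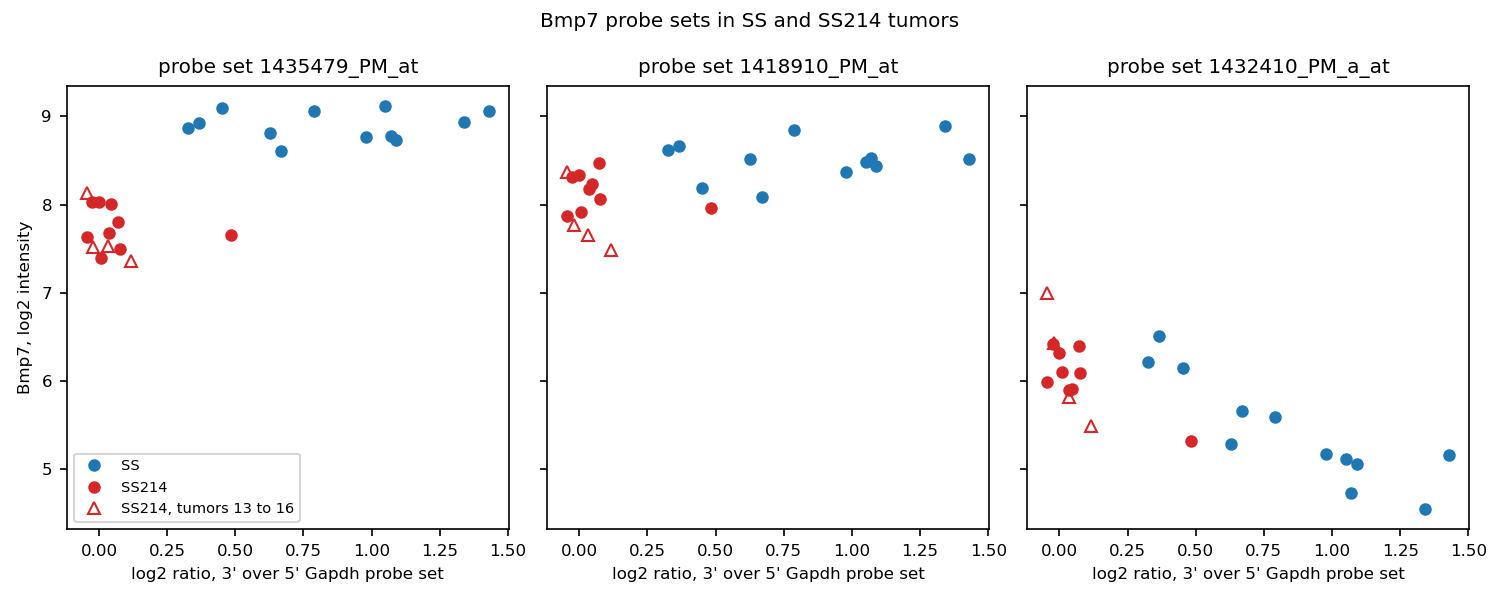
Log2 intensity of the 3 *Bmp7* probe sets (panels) in 12 SS and 13 SS214 tumors (points) against the log2 3′/5′ *Gapdh* ratio of the same array, with SS214 tumors 13 to 16 as open triangles. In 1435479_PM_at every SS tumor is above every SS214 tumor, and in 1432410_PM_a_at the level is lower where the ratio is higher among SS tumors. SS214 tumors differ little in the ratio, at -0.04 to 0.12, except tumor 9 at 0.48.

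*Bmp4* was the other member that passed at an adjusted p under 0.05, as did 39.9% of all genes. It lay between 9.01 and 9.86 in SS214 tumors and between 9.39 and 10.46 in SS tumors, a difference of -0.43 (SE 0.11, adjusted p = 0.00338). With the *Gapdh* covariate it was -0.64 (adjusted p = 0.0518). *Bmp5* (-0.64, adjusted p = 0.0776), *Bmp2* (-0.17, adjusted p = 0.658), *Bmp6* (-0.18, adjusted p = 0.391), *Gdf5* (0.19, adjusted p = 0.339) and *Nog* (0.11, adjusted p = 0.0899) did not pass. The intervals of *Id1* (-0.36 to 0.42), *Id3* (-0.45 to 0.20) and *Grem1* (-0.46 to 0.36) span changes in either direction. No other pathway gene reached a 2-fold change with an adjusted p under 0.05. Granulocyte genes were higher for 8 of 8 (median 2.00) and macrophage genes for 6 of 10 (median 0.83), beside a median of 0.04 for all genes. Adipocyte genes were higher for 1 of 3 (median 1.13) and lung genes for 2 of 5 (0.93). Of 6 marker genes of synovial sarcoma, *Sox2* among them, 3 were lower and 0 higher (median -0.45). The part of these genes in the differences of the members was not tested.

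Within the SS tumors, *Id1* and *Id3* varied together. Pearson's r was 0.938 over 12 tumors (permutation p = 1e-05, the smallest that 100000 resamples can give, adjusted p = 0.00022 over 22 relations) and Spearman's rho 0.93 (permutation p = 9e-05, adjusted p = 0.002). Without the 2 tumors farthest from the median *Id3*, r was 0.857, and with tumors 24 and 29 averaged it was 0.938. In SS214 tumors r was 0.776 over 13 tumors (permutation p = 0.001, adjusted p = 0.012), rho 0.775 (permutation p = 0.0032, adjusted p = 0.035), and r fell to 0.574 without the 2 farthest. Without tumors 13 to 16 it was 0.71 over 9 tumors (exact permutation p = 0.0092, adjusted p = 0.1 over 11 relations).

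The levels of the ligands and of the antagonist *Grem1* told less of *Id1*. In SS tumors *Id1* went with *Grem1* at r = 0.714 (permutation p = 0.011, adjusted p = 0.077), which was 0.434 without the 2 farthest tumors, and with *Bmp2* at r = -0.631 (permutation p = 0.026, adjusted p = 0.14), which was 0.0865 without them. The r of *Id1* in SS tumors was 0.553 with *Bmp4*, 0.509 with *Bmp6* and 0.507 with *Bmp7*. Without the 2 tumors farthest in each ligand it was 0.394, 0.477 and 0.69, so it rose with *Bmp7*. In SS214 tumors r with *Bmp4*, *Bmp6* and *Bmp7* was 0.384, 0.0644 and -0.21, and 0.483, -0.578 and 0.435 without the 2 farthest. Over all tumors of a group, none of these relations passed in either group. With the mean of 12 genes of endothelial cells, which express ID genes strongly, r of *Id1* was 0.131 in SS and -0.144 in SS214 tumors.

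**Figure D4:**
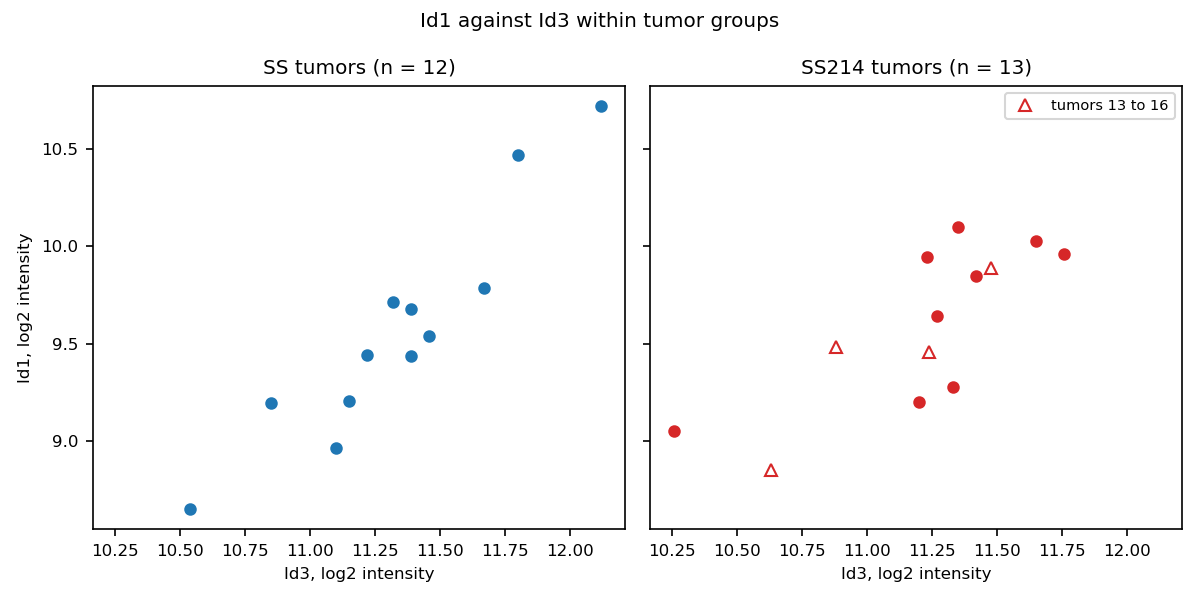
Log2 intensity of *Id1* against that of *Id3* in 12 SS tumors (left) and 13 SS214 tumors (right), each point 1 tumor, with SS214 tumors 13 to 16 as open triangles. Tumors high in *Id3* are high in *Id1* in both panels, with r of 0.938 and 0.776.

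The lines differed from each other in 3 of the 6 ligands, *Bmp4*, *Bmp2* and *Bmp6*, while *Bmp7*, *Bmp5* and *Gdf5* did not pass. With NC, SS40 was higher than SS64 in *Bmp4*, *Bmp2*, *Grem1* and *Bmp6*, 4 called members of 10, where 12.4% of 15473 genes were called and 6.02% were called higher. No member was called lower. *Bmp4* read 10.73, 10.28, 10.74 and 10.78 in SS40 and 3.91, 3.91, 3.86 and 4.11 in SS64, where all 4 arrays were near background. The difference was 6.68 (SE 0.12, adjusted p = 9.67e-12), and with SS64 raised to the 40th percentile it gave at least an 89.4-fold higher level in SS40.

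*Bmp2* read 7.14, 6.23, 7.02 and 6.80 in SS40 and was at or near the floor of 3.55 in SS64, at least 6.26-fold apart (difference 3.23, SE 0.17, adjusted p = 5.24e-08). *Grem1* was bright in both, at 11.36, 9.65, 10.93 and 10.80 in SS40 and 8.47, 8.75, 8.45 and 8.07 in SS64, and differed by 2.25 (SE 0.30, adjusted p = 9.92e-05). *Bmp6* differed by 1.19 (SE 0.19, adjusted p = 0.00041).

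*Id3* and *Id1* differed less than these 4, *Id3* by 0.30 (SE 0.04, adjusted p = 6.49e-05) and *Id1* by 0.17 (SE 0.05, adjusted p = 0.0115), each higher in SS40. *Nog* passed near background (adjusted p = 0.0308), with no usable level, and this did not hold with the closest arrays averaged (adjusted p = 0.117) or without array 3 or 4 of SS40 or array 1, 2 or 4 of SS64 (adjusted p up to 0.0848). *Bmp7* did not separate the lines (0.01, 95% interval -0.22 to 0.24). Its probe set 1435479_PM_at read 5.77 ± 0.17 in SS40 and 5.76 ± 0.11 in SS64 (SD, n = 4), while 1418910_PM_at was at or near the floor in both, so the probe sets disagree on whether the lines express *Bmp7*. *Bmp5* and *Gdf5* were near background in both lines.

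Other secreted antagonists differed as strongly. SS40 was at least 29.2-fold higher in *Fst* and at least 25.4-fold in *Bmper*, both near background in SS64, and higher by 4.47 in *Fstl1* and 2.22 in *Chrdl1* on the log2 scale, with 8 of 13 higher and 1 lower and a fitted median of 0.63 where that of all genes was 0.02. Among target genes, *Msx1* was higher in SS40 (2.64) and *Id4*, a further ID gene, lower. *Id4* read 3.76, 4.19, 4.09 and 3.95 in SS40, near background on 3 of the 4 arrays, and 9.22 ± 0.06 in SS64 (SD, n = 4). It was at least 33.3-fold lower in SS40, and was the only target gene of the list called lower.

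Against SS tumors, both lines were higher in *Grem1* and lower in *Bmp7* and *Bmp5*. *Grem1* was higher by 4.16 in SS40 (SE 0.33, adjusted p = 4.86e-09) and by 1.91 in SS64 (SE 0.29, adjusted p = 1.78e-05). *Bmp7* was lower in SS40 and SS64 (-3.13 and -3.14) in the brightest probe set. In 1418910_PM_at, near background in both lines, it was at least 20.6-fold lower in each. In 1432410_PM_a_at, under the 40th percentile on most arrays of the lines, *Bmp7* differed by -1.44 in SS40 and -1.38 in SS64. *Bmp5* was at least 6.47-fold lower in each line in its brightest probe set. In 1421283_PM_at it was 2.21-fold lower in SS40 and 2.13-fold lower in SS64. The probe set 1421282_PM_at was near background in both lines and in most SS tumors.

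SS40 thus had 1 member called higher and 2 lower, where 27.6% of 15619 genes were called (11.3% higher, 16.3% lower), and SS64 had 1 called higher and 4 lower, where 26% of 15643 were (10.4% higher, 15.5% lower). The further 2 in SS64 were *Bmp4*, at least 56.3-fold lower, and *Bmp2*, at least 6.55-fold lower. *Bmp4* was higher in SS40 than in SS tumors by 0.67 (adjusted p = 0.00093). *Nog* passed as well (adjusted p = 0.000157) but lay under the 40th percentile on all 12 SS tumors and 3 of 4 SS40 arrays, so no level is given. *Gdf5*, near background in SS40, was lower (-0.52, adjusted p = 0.0331), which did not hold without any 1 of the 4 SS40 arrays (adjusted p up to 0.0836). *Bmp6* was lower in SS64 (-0.92, adjusted p = 0.00228), and *Id1* did not pass in either line (0.60 and 0.43, adjusted p = 0.0599 and 0.169). *Id3* differed by -0.52 in SS64 (adjusted p = 0.0258), which did not hold with tumors 24 and 29 and the closest SS64 arrays averaged (adjusted p = 0.0513) or without array 3 or 4 of SS64 (0.0573 and 0.064).

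All 6 other target genes were lower in both lines (fitted median -2.39 in SS40 and -2.01 in SS64), with *Id4* at least 60.5-fold lower in SS40 and *Msx1* at -5.16 in SS64. Skeletal muscle genes were lower in the lines for 10 of 10, with fitted medians of -6.91 and -6.93, and endothelial genes for 9 and 10 of 12. The part of such cells in the differences was not tested. The comparisons with the tumors share the 12 SS tumors.

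After *miR-214* the members of the lines changed little. In SS40, none of the 10 passed the test, where 1.03% of 15440 genes passed and 0.201% were called. At an unadjusted p under 0.05 by limma stood 2 of them, *Bmp4* and *Id1*, and the methods' t-test called 0 members. *Bmp4* read 10.04, 10.06, 10.07 and 9.27 with *miR-214* against 10.28 to 10.78 with NC, a difference of -0.77 (95% interval -1.20 to -0.35, adjusted p = 0.141) without overlap, and 10.8% of all genes did not overlap. Without replicate 4 of SS40 with *miR-214* the difference was -0.57 and the adjusted p 0.0413. Without arrays 3 and 4 of that group it was -0.58 (adjusted p = 0.0971). *Id1* differed by -0.23 (adjusted p = 0.441) and *Id3* by 0.15 (adjusted p = 0.543). Their ranges did not overlap either, so *Bmp4*, *Id1* and *Id3* stand beside the 10.8% of all genes.

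In SS64, *Id3* fell. It read 10.86, 10.85, 10.79 and 10.74 with NC and 10.34, 10.34, 10.33 and 10.37 with *miR-214*, a log2 difference of -0.47 (SE 0.04, adjusted p = 1.08e-05), or 1.38-fold. Without arrays 3 and 4 with *miR-214*, which leaves arrays 1 and 2, the closest of the group, it was -0.47 (adjusted p = 0.000277), and with the spread estimated over all 53 arrays the adjusted p was 0.458. *Grem1* was lower (-0.60, SE 0.15, adjusted p = 0.0236), at 7.95, 8.06, 7.45 and 7.88 against 8.07 to 8.75, and did not pass without array 1, 2 or 3 with NC or array 3 with *miR-214* (adjusted p 0.0514 to 0.0628), nor without arrays 3 and 4 with *miR-214* (-0.43, adjusted p = 0.126). No member reached 2-fold, where 0.24% of 15403 genes were called and 12.9% passed without the fold, and the ranges of *Id3* and *Grem1*, beside that of *Bmp5* near background, were the ones that did not overlap, as for 19.5% of genes. Without a filter on low values the adjusted p of *Grem1* was 0.126.

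*Bmp4* was uneven in SS64 with *miR-214*, at 3.91, 3.84, 5.19 and 6.55 where NC stayed between 3.86 and 4.11, and the difference of 0.92 did not pass (adjusted p = 0.314). The same arrays 3 and 4 were the high ones for *Fst*, as given above, and for *Fstl1* (6.91, 7.13, 7.49 and 8.31), and without them *Bmp4* differed by -0.07 (adjusted p = 0.74). The part of these genes in the level of *Bmp4* was not tested. *Id1* was level in SS64, with a difference of -0.01 (95% interval -0.09 to 0.08).

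The response of *Id3* differed between the lines by 0.62 (SE 0.07, adjusted p = 0.000663 for the interaction in limma), since it was 0.15 in SS40 (adjusted p = 0.543) and -0.47 in SS64. It was the 1 member of 10 to pass this test, and it did not reach 2-fold, where 0.872% of 15826 genes passed and 0.24% were called. Without arrays 3 and 4 of the *miR-214* groups the difference was 0.56 (adjusted p = 0.000967). With the spread estimated over all 53 arrays the adjusted p was 0.847, and *Bmp4*, at -1.70, then passed with 0.0297 in place of 0.34, but without those 4 arrays *Bmp4* gave -0.51 (adjusted p = 0.301). *Id2*, another ID gene, differed between the lines the same way, by 0.76 (adjusted p = 0.00271), and fell by 0.48 in SS64 (adjusted p = 1.01e-05).

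In SS64, 3 of 13 other antagonists passed, all lower, namely *Bambi* (-0.72), *Nbl1* (-0.61) and *Twsg1* (-0.41), an extracellular BMP modulator. Of 8 SMADs and their regulators, *Smad6*, an inhibitory SMAD (-0.61), and *Smad1* (-0.23) were lower and *Smad5* (0.18) higher. Of 11 receptors and co-receptors *Bmpr2* was lower (-0.17), and of 6 other target genes *Id2* was lower and *Hey1* higher (0.30). In SS40, *Chrdl1* was lower (-0.72, adjusted p = 0.04). None of them was called, and they were named after their values were seen. Endothelial, macrophage and skeletal muscle genes were dim in the lines, with mean levels of 4.42 to 4.63, 4.09 to 4.83 and 4.40 to 4.89 over the arrays of the 4 groups, and 5 to 7 of 12, 3 to 6 of 10 and 2 to 3 of 10 of them lay under the 40th percentile. Smooth muscle genes were brighter, between 5.38 and 6.49.

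**Figure D5:**
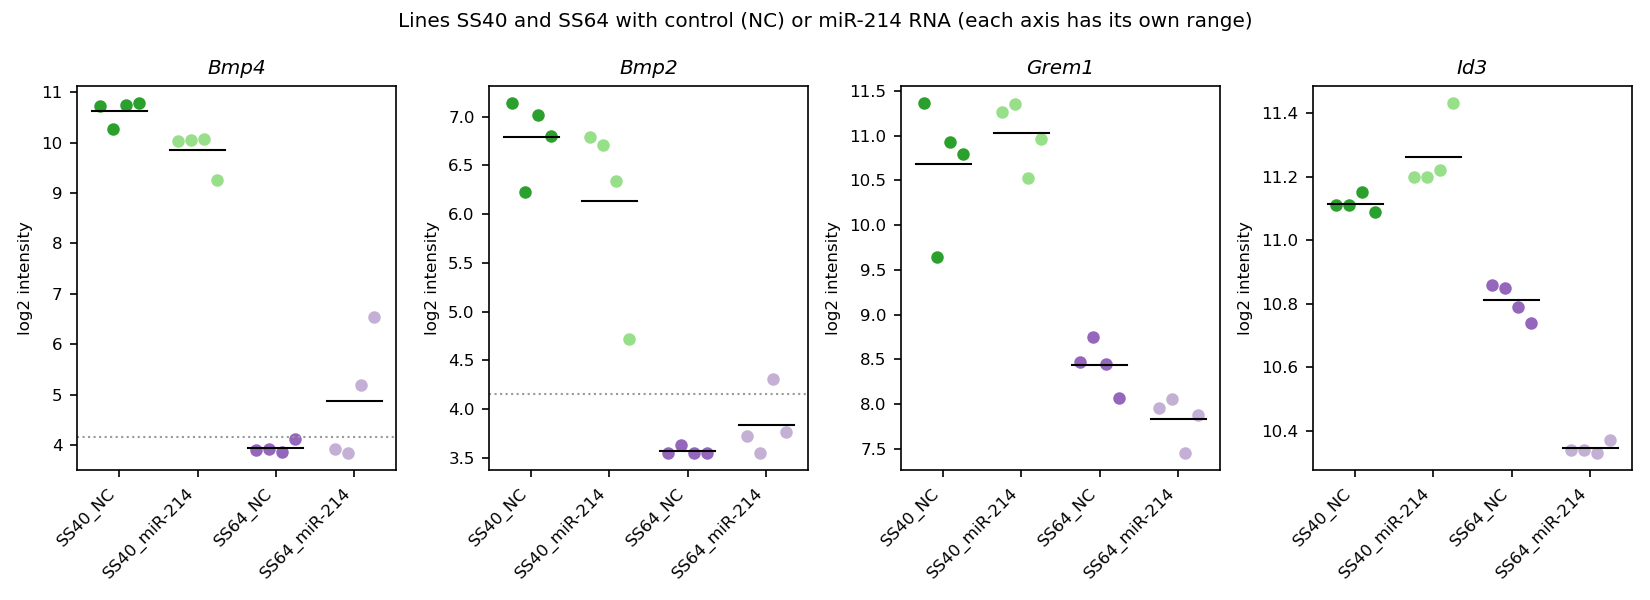
Log2 intensity of *Bmp4*, *Bmp2*, *Grem1* and *Id3* on each of 4 arrays (points) of SS40 and SS64 with NC or *miR-214*, with black bars at the means and a dotted line at the 40th percentile, and with a separate vertical range in each panel. *Bmp4* and *Bmp2* are near the dotted line in SS64 with NC, and *Id3* is lower with *miR-214* in SS64 on all 4 arrays.

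The genes most like each member were named by Pearson's r over the 9 group means, 3 for each among 9844 genes (9845 for *Nog*) whose means spanned over 1 log2 unit. *Bmp2* was most like *Synpo* (r = 0.989), *D230025D16Rik* (0.978) and *Cdkn1c* (0.973), and *Bmp4* like *Gspt2* (0.991), *Sh3bp1* (0.986) and *Cxcl12* (0.981). *Bmp5* was most like *Klhl13* (0.993), *Igdcc4* (0.991) and *Reck* (0.99), *Bmp6* like *Tmie* (0.971), *Fam81a* (0.955) and *Sec16b* (0.943), and *Bmp7* like *Dync2h1* (0.991), *Dcaf5* (0.98) and *Gtf3c1* (0.978). For *Grem1* these were *Bloc1s6* (0.99), *Ddx56* (0.986) and *Adat3* (0.985), for *Id1* *Stt3a* (0.983), *Scpep1* (0.978) and *Ccn1* (0.971), and for *Id3* *Mfsd11* (0.965), *Cdc23* (0.961) and *Gulp1* (0.957). Near background, *Gdf5* was most like *Yipf3* (0.985), *Tbc1d23* (0.975) and *Asrgl1* (0.975), and *Nog* like *Exog* (0.97), *Nup88* (0.969) and *Dhx37* (0.968). These are descriptions over 9 points, and among so many genes a high r is reached easily.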

How the data were processed

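The deposited values are 53 columns of linear probe-set intensity on a mouse GeneChip array, made by the authors from scanned arrays. The submitters' processing notes name MAS5 with no version, and the authors' methods name GeneSpring. How the intensities were scaled is not given in the sources used here, and their range was 5.364 to 11034 with array medians of 22.5 to 26.9. The number of arrays, not a read depth, limits the precision.

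Values were used as deposited, raised to a floor at the median 20th percentile (intensity 11.7, log2 3.55) and put on the log2 scale, and 104 control probe sets were left out. The 40th percentile (intensity 17.8, log2 4.15) marked values near background, and "at least" folds set the dim group to it. Names came from the platform's annotation, brought up to date through gene IDs (28898 have 1 symbol, 551 several and 15588 none), and a gene took the probe set brightest over all arrays.

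Each comparison was fitted on its own groups with limma 3.58.1 (lmFit, eBayes with trend) in R 4.3.3, on probe sets over the floor on 4 or more arrays, with Benjamini-Hochberg adjustment over all of them. Calls needed an adjusted p under 0.05 together with a fold over 2. The difference between the lines is the interaction in 1 fit of their 4 groups. Tumor correlations used permutation tests (two-sided, 100000 resamples, exact for 9 tumors) in scipy 1.17.1. The methods' test, a two-tailed Student t-test, was an alternative. The scripts were tested on simulated data. All 10 members were named with every probe set, other pathway genes mostly by the largest called change up to 4 a list, and the 3 genes most like each member. The members and lists were chosen with earlier results of these data known.

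Same-numbered arrays of SS64 deviated together (correlations 0.346, 0.319, 0.221 and 0.283). However, array 1 with *miR-214* was most like array 2 with NC, and array 3 most like array 4. The main fits hold no pairing, and a fit with a replicate block was an alternative. The labels do not say whether arrays of a group come from separate cultures, so p-values measure the spread between these arrays, which may be technical.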

Additional observations from a re-analysis of the deposited data

Results flagged for a closer look

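Of 70 groups of 4 arrays tested for an array far from the others, 7 held one, and chance gives about 1 in 20. *Bmp4* read 9.27 in replicate 4 of SS40 with *miR-214* (others 10.04 to 10.07) and 10.28 in replicate 2 of SS40 with NC (others 10.73 to 10.78). *Id3* read 11.43 in replicate 4 of SS40 with *miR-214* (others 11.20 to 11.22), and *Id1* 10.09 in replicate 1 of SS40 with NC (others 10.18 to 10.20). *Bmp7* read 6.40 in replicate 2 of eMC_SS18-SSX1 (others 6.16 to 6.17). Near background, *Nog* read 3.75 in replicate 1 of the mix (others 3.60 to 3.63) and *Bmp2* 3.63 in replicate 2 of SS64 with NC (others at the floor of 3.55).

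The response of *Id3* to *miR-214* differed between SS40 and SS64 by 0.62 on the log2 scale (adjusted p = 0.000663 for the interaction in limma).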

How the results depend on the processing

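Over 176 alternatives to the counts of called members and the correlations, 10 moved a count by over 1.5 times. For single members, 613 alternatives were read by an adjusted p under 0.05 alone, without the fold. They cover brightest probe sets only, where the main fit or the alternative passed. Of these, 561 kept direction and side of that threshold, 40 no longer passed, 12 newly passed and 0 reversed. Without the fold threshold the counts were 8 in eMCs, 2 in SS214 against SS tumors, 2 in SS64 with *miR-214*, 1 for the difference between the lines, 7 between the lines with NC and 6 in SS40 against SS tumors, in place of 1, 1, 0, 0, 4 and 3. With any probe set counted, eMCs gave 2. The difference between the lines gave 1 in 1 fit of all arrays and 1 by the methods' t-test with unadjusted p. Among SS214 tumors, 1 correlation passed and 0 without tumors 13 to 16. Arrays were left out 1 at a time only from groups of 4, so no single tumor was left out this way. This gave 1 in eMCs, and 7 and 6 for SS tumors against eMC_empty and mix. It gave 0 for *miR-214* in either line and for their difference, and 4 between the lines. SS40 against SS tumors gave 3, and SS64 against SS tumors 5 to 6. *Grem1* in eMCs passed without replicate 4 of eMC_empty (-0.23, adjusted p = 0.012).

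Fits with a replicate block gave counts of 1 in eMCs, 0 in SS40, 0 in SS64 and 0 for the difference between the lines, and changed no call. Same-numbered arrays correlated at 0.0113 to 0.153 in eMCs and -0.282 to 0.464 in SS40, and the main fits there hold no pairing either. Averaging the closest arrays, the *Gapdh* covariate, leaving out arrays 3 and 4 and leaving out SS tumors 18, 19 and 23 were chosen after seeing the data. Members near background in their brightest probe sets allow only bounds there. These are *Nog*, *Gdf5* in the mix and the lines, *Bmp5* in both lines, and *Bmp2* and *Bmp4* in SS64.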
